A study of Drosophila melanogaster with 6 samples.

Results

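Lysozyme genes of the *Drosophila melanogaster* gut were followed through 3 groups of adult midguts, and 1 of them, *LysX*, moved against the abundant copies. The genes are the 7 whose names in the deposited gene table are *LysB*, *LysC*, *LysD*, *LysE*, *LysP*, *LysS* and *LysX*, of 14026 genes in all. They were taken by name, and the set was also chosen by earlier results of these data, namely the log2 fold changes at Pe day 0, where *LysX* was high and the abundant copies low. Their fold changes are therefore descriptions with their errors, and no test is drawn from them. All libraries came from total RNA of the midgut of wild-type Oregon-R flies. Flies 4 to 5 days old had received sucrose (Mock day 0, 2 libraries) or a treatment labelled Pe, which the labels do not spell out (Pe day 0, 2 libraries). Flies 7 to 8 days old formed the group Pe day 3 (2 libraries), and sucrose-fed flies of that age are not among the labelled groups, so treatment, day and age cannot be told apart between Pe day 3 and Mock. The labels do not say whether the 2 libraries of a group came from separate dissections, so the errors describe how far these libraries differ, and that may be technical variation alone. The series asked how regeneration of the midgut starts and stops.

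Lysozymes cut the sugar backbone of peptidoglycan, the wall polymer of bacteria. Flies, like other insects that feed on microbe-rich food, carry a cluster of C-type lysozyme genes whose products serve in the gut as digestive enzymes. *LysB*, *LysC*, *LysD* and *LysE* are near copies of each other and are known from the midgut, *LysP* is known from the adult salivary gland, *LysS* from the larval gut, and *LysX* from the gut around metamorphosis.

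All 7 genes lie within 33.5 kb of chromosome arm 3L (build BDGP6.54, whose coordinates are given because the submitters' notes name BDGP6). Each has a single exon. *LysX* stands apart at 3L 1194739 to 1195302 on the minus strand, and 12.1 kb separate it from *LysB* (1207371 to 1207981, plus strand). *LysB* is followed by *LysC* (1210485 to 1210726, plus), *LysD* (1210717 to 1211196, minus), *LysE* (1212827 to 1213406, plus), *LysP* (1218082 to 1218696, minus) and *LysS* (1227747 to 1228238, plus). These 6 genes sit inside introns of *mwh*, a wing-hair polarity gene, and *LysX* lies outside it. *LysB*, *LysD*, *LysE* and *LysS* encode proteins of 140 residues, *LysP* of 141 and *LysX* of 142. *LysC* is annotated as a pseudogene of 242 bases whose end shares 10 bases with *LysD* on the other strand; whether the authors' counting used strand is not given in the sources used here. Reads of near-identical copies could have been divided among them by that counting, so the value of any 1 copy is uncertain and their sum is given too.

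The deposited table holds 1 mean per gene over all 6 libraries and 2 fold changes, and no value per library. Its header does not say which groups were compared. Mock was taken as the reference of both, with Pe day 0 in the first comparison and Pe day 3 in the other, because the title of the table lists the groups in that order; all directions below depend on this reading. The mean of each group was solved from these values, in normalized counts, that is, reads after division by size factors. Estimated depths were between 1.76e7 and 2.01e7 reads per library. A gene is called here at an adjusted p under 0.05. The summed normalized counts of all genes were lower at Pe day 0 than in Mock by a log2 value of -0.67, and scaling to library totals raises every Pe day 0 value by that amount; the direction and call of each of the 7 genes at Pe day 0 were the same on both scales.

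*LysB*, *LysC*, *LysD* and *LysE* were abundant in Mock, fell at Pe day 0 by between 7.38-fold and 14.7-fold, and stood near the Mock level at Pe day 3. *LysD* was the highest, with a mean of 71713 normalized counts in Mock, 5975 at Pe day 0 and 65863 at Pe day 3. It ranked 28th of all genes in Mock, 421st at Pe day 0 and 30th at Pe day 3. Its log2 fold change at Pe day 0 was -3.59 (SE 0.45) in the authors' deposited table, or 12.0-fold lower with a 95% interval of 6.48-fold to 22.2-fold. *LysB* had means of 41952 in Mock, 3477 at Pe day 0 and 34278 at Pe day 3. Its log2 fold change at Pe day 0 was likewise -3.59 (SE 0.42) in the authors' deposited table. The Pe day 0 mean of both genes was the lowest of the 3 groups, and the Mock and Pe day 3 means lay close together. *LysE* had means of 23418, 1597 and 15158 in the same order of groups. Its log2 fold change was -3.87 (SE 0.40), the lowest of these 4 copies in the authors' deposited table. *LysC*, the copy annotated as a pseudogene, had means of 8273, 1121 and 9720. Its log2 fold change was -2.88 (SE 0.41) in the authors' deposited table.

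Against Mock, the same 4 genes at Pe day 3 had log2 fold changes between -0.63 and 0.23, with errors between 0.40 and 0.45, per the authors' deposited table. None of them was called. The 95% intervals all include no change and are wide: *LysD*, at -0.12 (SE 0.45), had an interval from 0.496-fold to 1.70-fold of Mock in the authors' deposited table. From Pe day 0 to Pe day 3 the 4 genes rose by between 8.67-fold and 11.0-fold. *LysD* rose most (log2 3.46, SE 0.45) and *LysC* least (3.12, SE 0.41), a span smaller than either error.

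**Figure D1:**
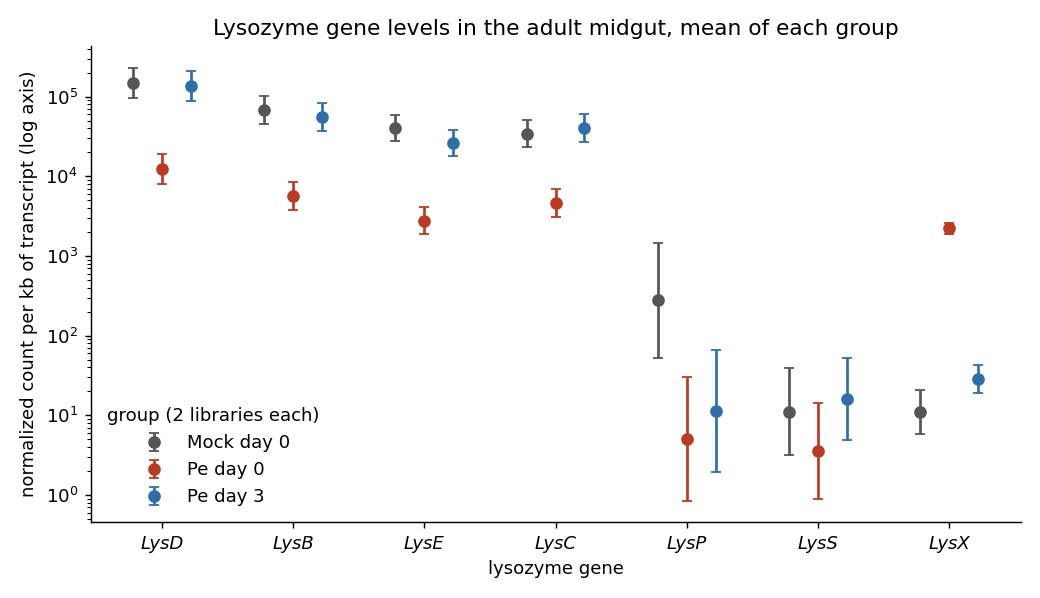
Mean level of each lysozyme gene in each group, in normalized counts per kb of the longest annotated transcript on a log axis; bars are 95% intervals of the group mean, computed from the dispersion that the authors' standard errors imply. *LysB*, *LysC*, *LysD* and *LysE* are lowest at Pe day 0, and *LysX* is highest there.

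Since copies may share reads, the 6 genes other than *LysX* were summed. Together they had 145532 normalized counts in Mock, 12174 at Pe day 0 and 125034 at Pe day 3. The sum was 12.0-fold lower at Pe day 0 than in Mock (log2 ratio -3.58), with a standard error between 0.26, if the genes vary independently, and 0.43, if they vary fully together. At Pe day 3 it stood at -0.22 against Mock (SE 0.27 to 0.44), a difference within its error. From Pe day 0 to Pe day 3 it was 10.3-fold higher (3.36, SE 0.27 to 0.43). As a share of all counts, a measure that needs no size factor, the sum was 0.652% in Mock, 0.0866% at Pe day 0 and 0.571% at Pe day 3. In a bulk tissue sample, fewer cells of a type and less RNA per cell cannot be told apart.

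*LysD* held the largest share of that sum in every group, and *LysB* the next. *LysD* held 49.3% of it in Mock, 49.1% at Pe day 0 and 52.7% at Pe day 3. *LysB* held 28.8%, 28.6% and 27.4%. *LysE* went from 16.1% to 13.1% and 12.1%, and *LysC* from 5.68% to 9.21% and 7.77%. No error can be put on these shares without values per library. *LysP* (0.117% in Mock) and *LysS* (0.00376%) added little to it.

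*LysP* was low and its error wide. It had a mean of 170 normalized counts in Mock, or 279 estimated reads in both libraries together, against 3.15 at Pe day 0 (8.98 reads) and 6.95 at Pe day 3 (11.9 reads). The authors' deposited table put it at -5.76 (SE 1.80) at Pe day 0, where it was called, and at -4.62 (SE 1.79) at Pe day 3, where it was not (adjusted p = 0.0544). Its value from Pe day 0 to Pe day 3 was 1.14 (SE 1.85), not called. Its Pe day 3 mean also lay below that of Mock, on few reads. The implied coefficient of variation between libraries was 120%, and group means do not show whether its reads in Mock came from 1 library or both.

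*LysS* was close to the limit of detection, with 8.97 estimated reads over both Mock libraries, 5.02 at Pe day 0 and 13.5 at Pe day 3. The authors' deposited table gave it -1.64 (SE 1.37) at Pe day 0, not called, and 0.52 (SE 1.27) at Pe day 3, where the adjusted p is blank. No difference between groups was detectable for *LysS* at this depth and spread between libraries.

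*LysX* did the opposite of the abundant copies. Its mean was 6.16 normalized counts in Mock, 1252 at Pe day 0 and 16.3 at Pe day 3. These correspond to 10.1, 3571 and 27.9 estimated reads over both libraries of each group. The Pe day 0 mean was far above both others. Against Mock, the Pe day 0 level of *LysX* was 203-fold higher, with a 95% interval from 105-fold to 393-fold (log2 fold change 7.67, SE 0.49), in the authors' deposited table. Only 12 of the 10393 genes tested there had a higher log2 fold change, and of those only *upd2*, a cytokine gene, had a deposited mean of at least 100. On the log2 scale with 10 added to each group mean, which weighs low levels less, the value was 6.29. Its Pe day 3 value was 1.40 (SE 0.56) against Mock in the authors' deposited table, 2.64-fold higher with a 95% interval from 1.24-fold to 5.62-fold, and was not called (adjusted p = 0.0628). With totals that leave out the 20 most abundant genes as the scale it was called, at 1.47 (adjusted p = 0.0456, against 0.0456 to 0.0899 over the alternatives). From Pe day 0 to Pe day 3 *LysX* fell 77.0-fold (log2 -6.27, SE 0.32).

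**Figure D2:**
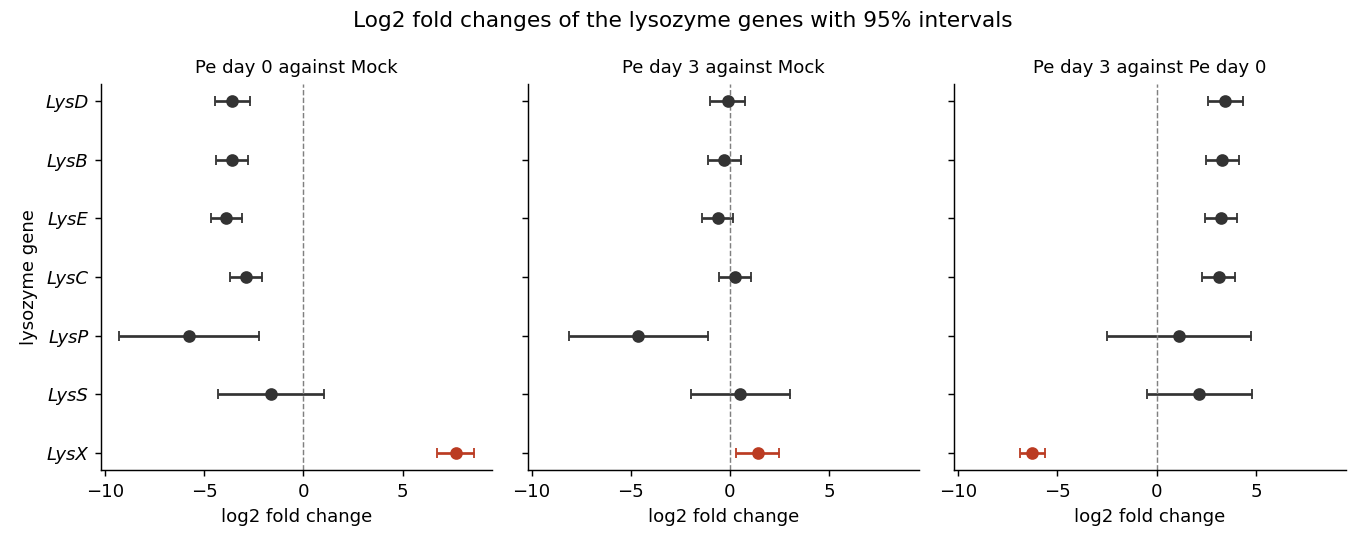
Log2 fold changes of the 7 genes (points) with 95% intervals (bars) in the 3 comparisons, the first 2 from the authors' deposited table and the last derived from both. *LysX* (red) lies at 7.67 at Pe day 0, where *LysB*, *LysC*, *LysD* and *LysE* lie between -3.87 and -2.88; the sides are exchanged from Pe day 0 to Pe day 3.

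Set against the summed 6 other genes, the log2 fold change of *LysX* differed by 11.2 (SE 0.65) at Pe day 0, by 1.62 (SE 0.71) at Pe day 3 and by -9.63 (SE 0.54) from Pe day 0 to Pe day 3. The errors of these differences take the 6 genes as varying fully together and *LysX* as independent of them, so they are not upper limits. Scaling moves both sides of these differences by the same amount and leaves them as they are. *LysX* held 0.00423% of the normalized counts of all 7 genes in Mock, 9.33% at Pe day 0 and 0.0130% at Pe day 3. The rise of *LysX* did not make up for the fall of the others in counts: all 7 genes together had 145538 normalized counts in Mock, 13427 at Pe day 0 and 125050 at Pe day 3.

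Per kb of transcript *LysD* led in all 3 groups. *LysB* came next, but within the 95% error of the gene that followed it in each group. The distance between *LysX* and the abundant copies was short at Pe day 0 and long in the other groups. In Mock the order of levels was *LysD* (149402 normalized counts per kb), *LysB* (68661), *LysE* (40376), *LysC* (34186), *LysP* (277), *LysS* (11.1) and *LysX* (10.9). *LysD* stood above *LysB*, *LysC* above *LysP* and *LysP* above *LysS* by more than the 95% error of the ratio, whereas *LysB* and *LysE*, *LysE* and *LysC*, and *LysS* and *LysX* did not differ beyond it. The errors of these ratios, here and below, treat the genes as varying independently. The genes were measured in the same libraries and may share reads, so the true errors may be smaller or larger. At Pe day 0 *LysX*, at 2221 per kb, lay next to *LysE* at 2753, a ratio of 1.24 within its error, and above *LysP* (5.12) and *LysS* (3.58). At Pe day 3 *LysX* was at 28.8 per kb, next above *LysS* at 16.0 and *LysP* at 11.3, ratios within their errors, and *LysE* at 26135 was 907-fold above it. The level per kb of *LysC* rests on its short pseudogene model in the current annotation, and the authors' annotation release is not given in the sources used here.

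**Figure D3:**
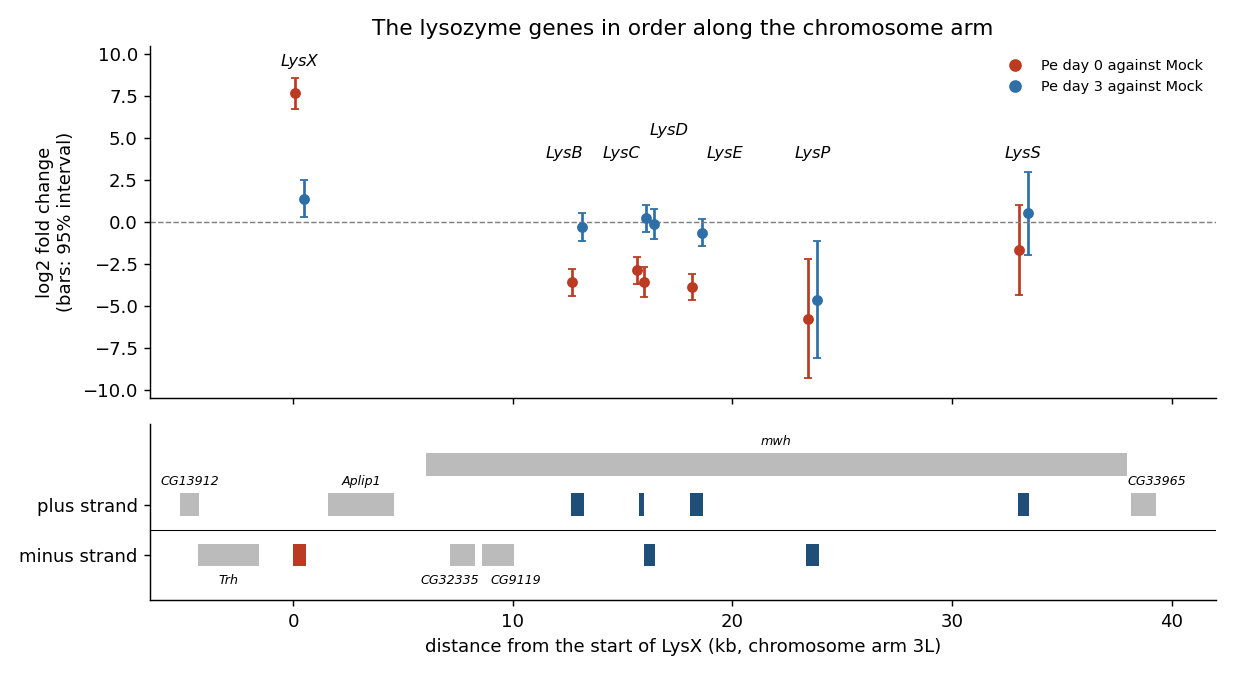
Upper panel: log2 fold change against Mock (points, 95% intervals as bars) of each lysozyme gene at its place along chromosome arm 3L, in kb from the start of *LysX*; points of a gene are set slightly apart. Lower panel: the genes to scale by strand, with lysozyme genes in blue and *LysX* in red, and *mwh* spanning the 6 others.

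The spread between libraries was large for the abundant copies. The dispersion behind the authors' standard errors corresponds to a coefficient of variation of 28.0% to 31.4% between libraries of a group for *LysB*, *LysC*, *LysD* and *LysE*. Their errors at Pe day 0 were larger than those of 97.0% to 99.0% of the 200 genes nearest to each in mean, where the median error was between 0.119 and 0.126 in the authors' deposited table. For *LysX* the coefficient was lower, at 11.7%. Its error at Pe day 0 was larger than those of 98% of the 200 genes nearest to it in mean, where the median error was 0.169. Most of that error came from its few reads in Mock: the log2 error of the group mean was 0.47 in Mock and 0.12 at Pe day 0. The deposited mean of *LysX* comes mostly from Pe day 0, so genes near it in mean need not have so few reads in Mock. All libraries share 1 dispersion per gene in that fit, so which library or group varied cannot be told.

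By count, 1 of the 7 genes (*LysX*) was called higher and 5 were called lower at Pe day 0, with a median log2 fold change of -3.59 against 0.03 over all genes tested. Over all genes 46.6% were called in that comparison, 23.0% higher and 23.6% lower (2391 and 2455 genes, against 5545 and 932 with library totals as the scale). At Pe day 3 against Mock 0 of the 6 genes tested were called by the authors' DESeq2 test, with 2 at an unadjusted p under 0.05 (*LysP* and *LysX*), where 17.7% of all genes were called, 8.75% higher and 8.92% lower (728 and 742 genes, against 955 and 561 with totals that leave out the 20 most abundant genes as the scale); the median was -0.21 against 0.01. From Pe day 0 to Pe day 3, 4 of 6 were called higher and 1 (*LysX*) lower, where 52.7% of all genes were called, 27.4% higher and 25.3% lower (2279 and 2102 genes, against 778 and 5250 with library totals as the scale). Nothing is read from these counts, since the genes were taken up with the values known.

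Other lysozyme genes of the genome were few and low in the midgut. Of 6 further C-type and 4 I-type genes, 2 had a deposited mean of at least 10. *CG16799*, a C-type gene, had group means of 345 in Mock, 237 at Pe day 0 and 510 at Pe day 3; it was called lower at Pe day 0 (-0.54, SE 0.21, which becomes 0.12 and is not called when library totals set the scale) and higher at Pe day 3 (0.57, SE 0.21) in the authors' deposited table. *CG6426*, an I-type gene, was at 35.6, 31.9 and 32.0, with log2 fold changes of -0.16 (SE 0.44) and -0.16 (SE 0.46) in the authors' deposited table, neither called. Among the 8 others 1 was called higher at Pe day 0, *CG30062*, on a mean of 6.31 (3.63, SE 1.50) in the authors' deposited table. Summed, the 6 C-type genes had 356 normalized counts in Mock, 273 at Pe day 0 and 525 at Pe day 3, and the 4 I-type genes 46.0, 38.8 and 47.5. The first sum is mostly that of *CG16799* and the other mostly that of *CG6426*, so neither describes the remaining genes.

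Peptidoglycan is also cut by amidases of the PGRP family, and of 5 such genes examined 3 were called lower and 1 higher at Pe day 0. Over all genes tested 23.0% were called higher and 23.6% lower at Pe day 0, and 8.75% and 8.92% at Pe day 3. *PGRP-SC1a* (-5.02, SE 0.25), *PGRP-SC1b* (-4.09, SE 0.34) and *PGRP-SC2* (-2.61, SE 0.19) were lower in the authors' deposited table. The first 2 of these were still lower at Pe day 3, at -2.00 (SE 0.24) and -1.13 (SE 0.33), while *PGRP-SC2* was not called (-0.36, SE 0.19), in the authors' deposited table. *PGRP-LB* was the 1 called higher at Pe day 0. A further 7 PGRP genes examined, which need not be all the rest of the family, are mostly receptors or regulators of peptidoglycan sensing. They include *PGRP-SB2*, a predicted amidase gene listed at 0. They had 5 called higher and 1 lower (*PGRP-LE*, whose value of -0.43 in the authors' deposited table becomes 0.24 and is not called on the scale of library totals) of 6 tested at Pe day 0, and 1 higher and 0 lower at Pe day 3.

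**Figure D4:**
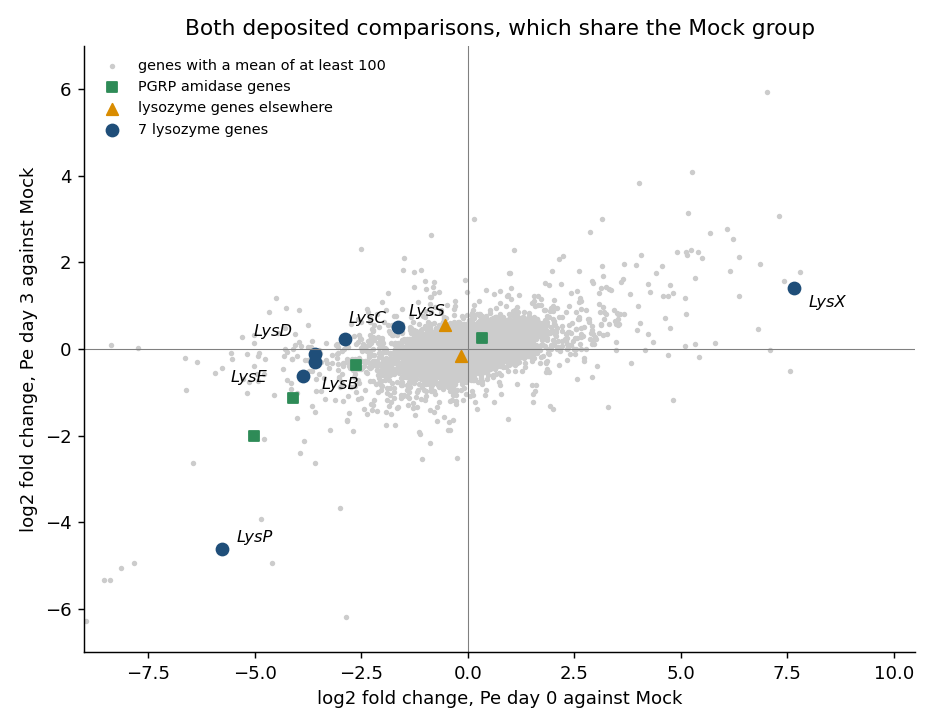
Log2 fold changes at Pe day 0 (x axis) and Pe day 3 (y axis), both against the same Mock group, for genes with a deposited mean of at least 100 (grey; 3 lie beyond the axes), the 7 lysozyme genes (blue), and those PGRP amidase genes (green squares) and lysozyme genes elsewhere (orange triangles) with a mean of at least 10. *LysX* lies at the far right, at 7.67 and 1.40, and *LysP* at -5.76 and -4.62, apart from the other lysozyme genes.

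Genes most like *LysX* were sought among 6835 named genes with a deposited mean of at least 100 as those nearest in the pair of log2 fold changes, over 3 groups that share Mock. The nearest were the cytokine gene *upd3* at a distance of 0.30 (7.43 at Pe day 0 and 1.58 at Pe day 3) and *upd2* at 0.40 (7.80 and 1.77) in the authors' deposited table. *GstD6*, a glutathione S-transferase gene, followed at 0.99, *TotC*, a Turandot stress peptide gene, at 1.26 and *CG8620* at 1.32. The SEs at Pe day 0 and Pe day 3 were 0.49 and 0.56 for *LysX*, 0.31 and 0.35 for *upd3*, and 0.80 and 0.87 for *GstD6*. The order of the nearest genes is therefore not resolved. Only 3 genes lay within a distance of 1 of *LysX*, against 79 within 1 of the summed other lysozyme genes. Nothing is read from that difference, since *LysX* was taken up as high at Pe day 0. The 5 nearest to the sum of the other lysozyme genes were *Cyp4d14*, a cytochrome P450 gene, at 0.04, *Gal*, a beta-galactosidase gene, at 0.08, *CG7882* at 0.16, *lambdaTry*, a trypsin gene, at 0.16 and *CG31266* at 0.18. These distances are smaller than the SE of the sum at Pe day 0 (0.26 to 0.43), so their order is not resolved either.

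Markers of the midgut were present in all groups. The counts below stand beside 23.0% of all genes tested called higher and 23.6% called lower at Pe day 0. Of 6 enterocyte genes 4 were called lower and 1 higher at Pe day 0, and their summed mean, mostly that of *alphaTry*, went from 1017489 in Mock to 336309 at Pe day 0 and 936569 at Pe day 3. All 4 of the visceral muscle genes were called lower at Pe day 0, with summed means of 8769, 3621 and 9157, and enteroendocrine genes in 5 of 5 (9032, 3060 and 9167). Of 3 progenitor genes 1 was higher and 2 were lower (1683, 764 and 1670). In the fat body list 3 of 4 tested genes were lower, the yolk protein genes *Yp1*, *Yp2* and *Yp3* (6091, 1738 and 6080 for the list), and in the haemocyte list 0 of 4 (320, 192 and 271). Of the Malpighian tubule genes 1 of 2 was lower (1159, 674 and 1511). In the salivary gland list, the glue genes *Sgs1* and *Sgs3* were near 0 in all groups. Of 2 tested genes 1, *fkh*, which the gut also expresses, was higher at Pe day 0 (453, 1499 and 810 for the list). The other, *sage*, had reads in all groups, with a deposited mean of 30.1, and was not called at Pe day 0 (0.26, SE 0.56). Neither the glue genes near 0 nor the reads of *sage* show whether salivary gland tissue was present, and its part in *LysP* was not tested. On the scale of library totals fewer were called lower at Pe day 0: 3 of 6 enterocyte genes (with 2 higher), 2 of 5 enteroendocrine genes, 2 of 4 in the fat body list and 0 of 2 Malpighian tubule genes, while the visceral muscle, progenitor, haemocyte and salivary gland counts were the same. The values of *Myo31DF* (0.22) and *pros* (0.09) change sign on that scale. Over all genes that scale gave 5545 higher and 932 lower at Pe day 0, against 2391 and 2455 on the main scale. None of the marker lists was tested for a part in the lysozyme values.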

How the data were processed

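The series holds 6 RNA-seq libraries in 3 groups, named by their titles. Per the labels' protocols, TRIzol-extracted total RNA went into Illumina TruSeq libraries. Tools named in the submitters' processing notes are Salmon 0.11.3, DESeq2 1.22.0, fastp 0.19.5 and CASAVA 1.8, on build BDGP6, with no roles or options. Per the file headers, the authors' deposited table gives a mean signal over all libraries, log2 fold changes with standard errors, the Wald score, and p-values with adjusted p-values. Tests on counts of single libraries were intended, but the table has no such counts, and the authors' deposited values are the main results.

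Size factors (0.788 to 1.43, product 1) came from genes with a single read. Of 177 genes whose mean lay within 1% of that for 1 read in each of 2 libraries of different groups, 3 equalled it to 10 decimals, and counts per library were not recovered. Group means followed from the mean and both fold changes. The dispersion solved from the standard errors (Spearman correlation of 1.00 between both comparisons) gave the error of Pe day 3 against Pe day 0. Normal p-values of that comparison were adjusted by Benjamini-Hochberg over 8316 genes. The step was tested on data simulated with the same error formula, which cannot show that this formula matches the authors' fit. Intervals are at 95% and use the normal distribution. Tools were Python 3.11.15, numpy 2.4.6 and scipy 1.17.1.

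All 7 members are named; other lysozyme genes are named with a deposited mean of at least 10, PGRP genes by count with up to 3 values (2 more by call), and like genes as the 5 nearest. *CG30062*, *CG7798*, *CG11159*, *CG16756*, *CG6421* and *CG14823* were named after their values were seen. Members and lists were chosen with earlier results of these data known. Alternatives were the scale, low-value filters, the threshold, a pseudocount of 10 and the members of the sum.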

Additional observations from a re-analysis of the deposited data

How the results depend on the processing

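With library totals as the scale the summed 6 other lysozyme genes stood at -2.91 at Pe day 0 against Mock, and at 2.72 from Pe day 0 to Pe day 3. With totals without the 20 most abundant genes the first was -3.08, *LysX* at Pe day 3 was 1.47 (adjusted p = 0.0456; range over alternatives 0.0456 to 0.0899), and the number of lysozyme genes called at Pe day 3 became 1. Over all genes library totals gave 5545 higher and 932 lower at Pe day 0, against 2391 and 2455. With 10 added to each group mean *LysX* was at 6.29, 0.70 and -5.59 in the 3 comparisons. The other 89 main and 94 single-gene alternatives kept direction and side of the threshold or moved by less than 1 error; 2 moved for *LysP* and *LysS* under the added 10. Leaving out each gene in turn, the sum lay between -3.63 and -3.53 at Pe day 0, between -0.32 and -0.15 at Pe day 3, and between 3.25 and 3.38 between the days. No paired analysis was possible because the table holds no values per library; for the same reason replicates were not left out and no other count tool was run. Depth limits *LysX* outside Pe day 0. *LysS* is limited both by few reads and by the spread between libraries (1.11 from dispersion alone, of an SE of 1.37 at Pe day 0). For *LysP* the spread between libraries makes up most of the error (1.74 from dispersion alone, of an SE of 1.80).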

Other observations

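Genes beside the lysozyme cluster on chromosome arm 3L did not share 1 direction at Pe day 0. *mwh*, whose introns hold 6 of the 7 lysozyme genes, was lower (-1.20, SE 0.21) in the authors' deposited table and was not called at Pe day 3 (-0.31, SE 0.21). *CG33965*, the next gene past *mwh*, was lower at Pe day 0 (-3.34, SE 0.29) and at Pe day 3 (-1.14, SE 0.28) in the authors' deposited table. On the scale of library totals each Pe day 0 value moves up by 0.67, which leaves both called lower (-0.53 and -2.68). *Aplip1*, the gene next to *LysX* on the side of the other lysozyme genes, was higher at Pe day 0 (3.29, SE 1.20) in the authors' deposited table, on a mean of only 7.04 normalized counts. Between *Aplip1* and *LysB*, *CG9119* was higher at Pe day 0 (0.71, SE 0.24) in the authors' deposited table, and *CG32335* was not called (0.71, SE 0.56), though with library totals as the scale it was (1.38). On the other side of *LysX*, *Trh* had a mean of only 2.06 and was not called. Past it, *CG13912* was lower (-1.14, SE 0.26) in the authors' deposited table, but was not called with library totals as the scale (-0.47). These 7 are the genes examined from *CG13912* to *CG33965* other than the lysozyme genes, and they need not be all that are annotated there.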
